A study of Bos grunniens and Bos grunniens x Bos taurus with 12 samples.

Results

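Glycolysis in the testis runs on 2 sets of enzymes, the forms found in most somatic cells and the isozymes made in germ cells, and the ribosome footprints on both sets were compared in testes of yak and of cattle–yak, the sterile male hybrid of yak and cattle. The genes were chosen by symbol from a list of 10: *GAPDHS*, *PGK2*, *LDHC* and *ENO4* as germ-cell isozymes, *GAPDH*, *PGK1*, *LDHA*, *LDHB* and *ENO1* as their somatic partners, and *TPI1*, which has no germ-cell partner. The symbol matched for 6 of the 10, of 20965 genes in all: *GAPDHS* (ENSBGRG00000025264), *PGK2* (ENSBGRG00000023754), *PGK1* (ENSBGRG00000014778), *ENO4* (ENSBGRG00000017722), *ENO1* (ENSBGRG00000012014) and *TPI1* (ENSBGRG00000021836). For *GAPDH* and *LDHB*, 2 genes without a symbol were used, chosen by their deposited descriptions after the tables had been seen: ENSBGRG00000001042, described as glyceraldehyde-3-phosphate dehydrogenase, and ENSBGRG00000003594, described as the B chain of L-lactate dehydrogenase. They are written *GAPDH* and *LDHB* below, are not counted among the 6, and rest on that description alone. A like description was also held by ENSBGRG00000008367 for the former and ENSBGRG00000001679 for the latter. These had at most 14 and 251 counts in any library, against at least 5627 and 2535 for the genes used. *LDHC* and *LDHA* were not analysed here, so the lactate dehydrogenase pair was not compared.

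Ribo-seq, the sequencing of mRNA fragments shielded by ribosomes from nuclease digestion, was performed on whole testis of 12 animals in 4 groups of 3. The labels give yak (*Bos grunniens*) at 6 months (juvenile), 18 months (puberty) and 4 years (sexual maturity), and sexually mature cattle–yak (*Bos grunniens* × *Bos taurus*), for which they also give 4 years. According to the methods, the hybrids had a Jersey cattle sire and a Gannan yak dam, and their testes were obtained by castration whereas adult yaks were euthanized, although the labels name castration for all animals. Genotype and collection therefore cannot be told apart, and no agent was given to any group.

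Glycolysis splits glucose into pyruvate, and TPI1, GAPDH, PGK and enolase catalyse steps of its lower part. Lactate dehydrogenase converts pyruvate to lactate. Spermatids replace several of these enzymes by forms of their own. GAPDHS is bound to the fibrous sheath of the sperm tail, and PGK2 is encoded by an intronless autosomal copy of the X-linked *PGK1*, which is silenced with the X chromosome in meiosis. ENO4 is an enolase of the sperm tail, and LDHC is the lactate dehydrogenase of spermatocytes, spermatids and sperm.

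Libraries held 25816963 to 37167651 counts on genes in yak of 6 months, 21309151 to 24542362 in yak of 18 months, 16304058 to 17862516 in yak of 4 years and 38437889 to 52616039 in cattle–yak. Levels are given as FPKM, in which counts are divided by gene length and library total, and group values as the mean ± SD of 3 libraries. The library of yak of 18 months replicate 2 stood apart from the other libraries of its group. Its correlation of log2 CPM (counts scaled to the library total) over genes was 0.878 and 0.901 with these libraries. The correlation was 0.974 between replicates 1 and 3 of that group and 0.983 to 0.992 within the other groups. Replicate 2 correlated at 0.975 to 0.976 with the libraries of yak of 4 years. It was also the only library of its group with adult-like markers of spermatids. The summed CPM of 7 round spermatid genes was 1043 in it, 1.47 and 6.36 in the other libraries of 18 months, 1805 to 2678 at 4 years, 0.423 to 1.28 at 6 months and 3.23 to 11.7 in cattle–yak. The elongating spermatid gene *TNP1*, which encodes a transition protein, had 25254 counts in this library and 0 and 47 in the others of its group. Its label was kept, and whether that label is right was not tested. Results at 18 months are therefore given with and without this library. In bulk tissue, fewer cells of a type and less RNA per cell cannot be told apart.

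GAPDHS was translated at a high level at 4 years and in the standing-apart library of 18 months, and at 20 to 96 counts per library elsewhere. Its FPKM was 0.66, 1.06 and 0.52 in the 3 yaks of 6 months, 1.73, 328.38 and 2.53 in those of 18 months, 538.3, 563.07 and 524.07 in those of 4 years, and 1.47, 1.36 and 1.13 in cattle–yak. No library of 6 months or of cattle–yak reached 2 FPKM, so neither group overlapped with yak of 4 years. The level rose between 6 months and 4 years by a log2 fold change of 8.91 (SE 0.292, adjusted p = 5.48e-08) and differed between cattle–yak and yak of 4 years by −8.66 (SE 0.183, adjusted p = 3.83e-07). In cattle–yak it was 0.209% to 0.271% of the mean of yak of 4 years. Cattle–yak held 54 to 96 *GAPDHS* counts per library, above the 3 counts that were taken as the limit of detection, and the log2 fold change over yak of 6 months was 0.28 (SE 0.403, adjusted p = 0.572), which did not exceed the spread between libraries.

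GAPDH, the somatic form, was lowest at 4 years, where GAPDHS was highest. Its FPKM was 532.47, 754.18 and 754.51 at 6 months, 966.39, 673.99 and 1384.7 at 18 months, 384.81, 363.16 and 334.77 at 4 years, and 1742.83, 1787.12 and 1618.38 in cattle–yak. Cattle–yak was highest, and neither cattle–yak nor yak of 4 years overlapped with any other group. The level fell between 6 months and 4 years by 1.47 on the log2 scale (adjusted p = 7.77e-05). This call was lost with scaling by library size alone (log2 fold change −0.91) and in each limma fit on log2 FPKM (−0.90). It was higher in cattle–yak than in yak of 4 years by a log2 fold change of 2.26 (SE 0.133, adjusted p = 3.32e-06).

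**Figure D1:**
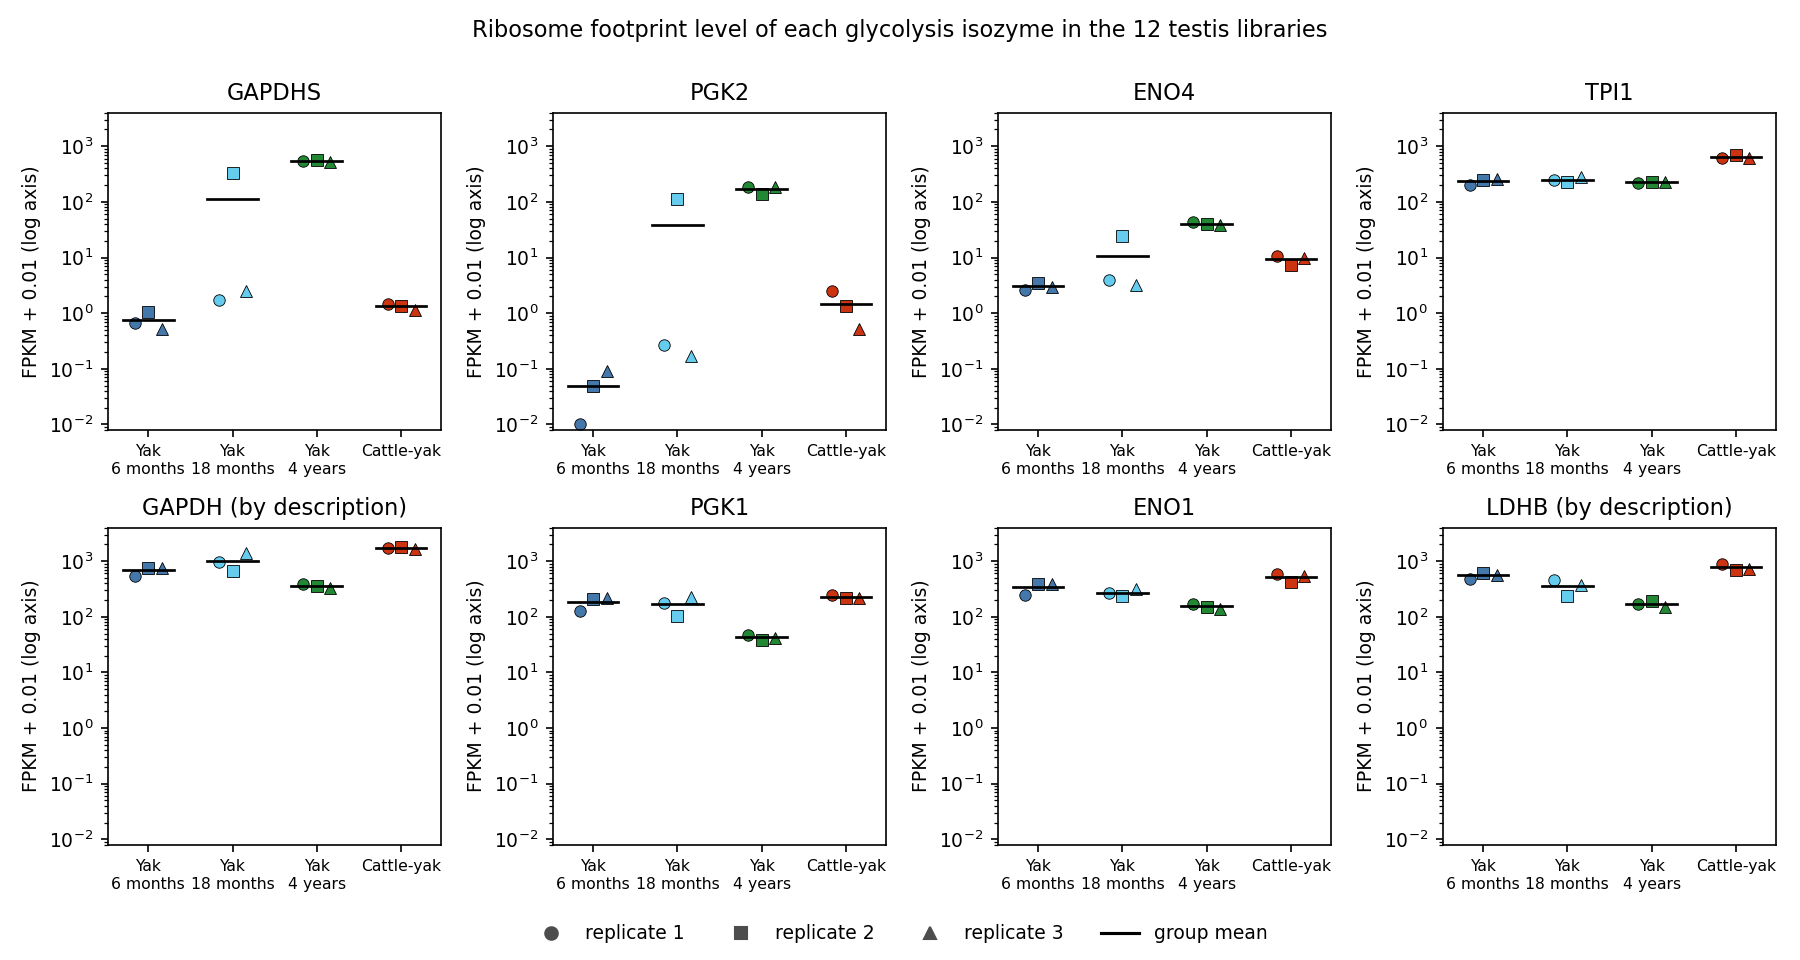
Ribosome footprint level (FPKM + 0.01, log axis) of 8 genes in the 12 libraries, with germ-cell isozymes and *TPI1* in the upper row and somatic forms in the lower row. Points are libraries and lines are group means of 3. In the panels of *GAPDHS*, *PGK2* and *ENO4*, replicate 2 of the yaks of 18 months lies near the yaks of 4 years, and the other replicates of 18 months lie near the yaks of 6 months.

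PGK2 covered the widest range of the 8 genes. Its FPKM was 0, 0.04 and 0.08 at 6 months, from 0, 2 and 3 counts. It was 0.26, 113.96 and 0.16 at 18 months, 183.42, 138.63 and 186.39 at 4 years, and 2.49, 1.31 and 0.51 in cattle–yak. Leaving aside yak of 18 months, the groups did not overlap, and cattle–yak lay between yak of 6 months and of 4 years. With counts pooled over the libraries of a group, the level was 2819 times higher at 4 years than at 6 months (95% interval 1208 to 8684, counting error only), and edgeR gave an adjusted p of 5.68e-08. In cattle–yak it was lower than at 4 years by a log2 fold change of −6.82 (SE 0.516, adjusted p = 1.14e-05).

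A low level of PGK2 footprints remained in all 3 cattle–yaks, with 168, 65 and 25 counts. The pooled level was 26.3 times that of yak of 6 months (95% interval 11.1 to 81.7), and the difference was called with an adjusted p of 0.00313, but not when all 12 libraries entered 1 fit (adjusted p = 0.142). The libraries of cattle–yak varied by more than those of *GAPDHS*, with a coefficient of variation of 69.3% against 13.1%. The summed CPM of 8 spermatocyte markers was 353 to 622 in cattle–yak, 124 to 186 at 6 months and 1342 to 1555 at 4 years. This is the order of groups of *PGK2*. The sums of round and elongating spermatid markers had it too, with 3.23 to 11.7 and 7.02 to 10.6 in cattle–yak. Not every spermatocyte marker did: *SYCP3* had 109, 57.4 and 82.4 CPM in cattle–yak and 57.8, 43.9 and 52.7 at 4 years. The elongating spermatid genes *TNP1* and *ODF1* overlapped between cattle–yak and yak of 6 months. *TNP1* had 4.64, 0.570 and 0 CPM in cattle–yak and 0.0387, 0 and 0.130 at 6 months. *ODF1* had 1.06, 0.0518 and 0 CPM in cattle–yak and 0.0775, 0.108 and 0 at 6 months. The round spermatid genes *ACRV1* and *SPACA1* did not overlap there. The part of these markers in the result was not tested.

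PGK1 was low where PGK2 was high. Its FPKM was 126.85, 206.52 and 216.06 at 6 months, 173.19, 104.74 and 229.75 at 18 months, 47.17, 38.9 and 41.61 at 4 years, and 243.39, 217.07 and 220.29 in cattle–yak. The lowest library of 18 months was replicate 2, and yak of 4 years was below every other library. The level fell between 6 months and 4 years by 2.65 on the log2 scale (SE 0.199, adjusted p = 3.96e-06) and was higher in cattle–yak than in yak of 4 years by 2.42 (SE 0.138, adjusted p = 2.90e-06). The log2 fold change over yak of 6 months was −0.21 in cattle–yak (SE 0.172, adjusted p = 0.318), and with scaling by library size alone it was 0.31. *PGK1* and *PGK2* are similar in sequence, so reads could be assigned to the wrong copy. At 6 months, 4187 to 9848 counts on *PGK1* stood beside 0 to 3 counts on *PGK2*, whereas the reverse, reads of *PGK2* counted on *PGK1*, was not tested.

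ENO4 differed from the other germ-cell isozymes in its smaller range. Its FPKM was 2.58, 3.51 and 2.99 at 6 months, 3.93, 24.21 and 3.22 at 18 months, 43.18, 39.75 and 38.44 at 4 years, and 10.51, 7.46 and 9.78 in cattle–yak. Cattle–yak lay between yak of 6 months and of 4 years without overlap. The level rose between 6 months and 4 years by a log2 fold change of 3.19 (SE 0.174, adjusted p = 6.01e-07). Cattle–yak had a lower level than yak of 4 years, by −2.05 (SE 0.164, adjusted p = 1.50e-05) and a higher level than yak of 6 months, by 1.15 (SE 0.206, adjusted p = 0.00177), although the latter call was lost when all 12 libraries entered 1 fit (adjusted p = 0.125). Cattle–yak retained 18.4% to 26.0% of the mean FPKM of yak of 4 years for *ENO4*, against 0.301% to 1.47% for *PGK2*.

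ENO1, the general enolase, followed the somatic forms. Its FPKM was 246.55, 387.97 and 380.74 at 6 months, 264.15, 235.66 and 312.35 at 18 months, 166.77, 152.29 and 140.51 at 4 years, and 597.84, 425.45 and 533.67 in cattle–yak. By FPKM, yak of 4 years was lowest and cattle–yak highest, and the groups of 6 and 18 months overlapped. The fitted log2 fold change of cattle–yak over yak of 6 months was 0.09 (SE 0.189, edgeR adjusted p = 0.690). The level fell between 6 months and 4 years by 1.70 on the log2 scale (SE 0.188, adjusted p = 4.39e-05) and was higher in cattle–yak than in yak of 4 years by 1.78 (SE 0.168, adjusted p = 3.78e-05).

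TPI1, which interconverts the triose phosphates, was the flattest of the genes across the ages of yak. Its FPKM was 199.26, 250.53 and 262.1 at 6 months, 243.19, 225.65 and 283.84 at 18 months, 222.17, 230.6 and 230.88 at 4 years, and 614.38, 684.32 and 607.77 in cattle–yak. The 9 yak libraries lay between 199.26 and 283.84 and all 3 cattle–yaks above 600 FPKM. The log2 fold change was −0.64 between 6 months and 4 years (SE 0.137, adjusted p = 0.00244), below the size required for a call. It was higher in cattle–yak than in yak of 4 years by 1.51 (SE 0.113, adjusted p = 1.07e-05).

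LDHB, the lactate dehydrogenase subunit of oxidative tissues, had FPKM of 482.99, 617.5 and 567.14 at 6 months, 451.1, 236.96 and 372.42 at 18 months, 166.53, 189.26 and 150.38 at 4 years, and 887.25, 703.52 and 734.06 in cattle–yak. By FPKM, the groups did not overlap and were ordered from cattle–yak through 6 and 18 months to 4 years. The fitted log2 fold change of cattle–yak over yak of 6 months was −0.05 (SE 0.154, edgeR adjusted p = 0.783). *LDHB* fell between 6 months and 4 years by 2.28 on the log2 scale (SE 0.170, adjusted p = 3.76e-06). It was higher in cattle–yak than in yak of 4 years by 2.21 (SE 0.158, adjusted p = 8.72e-06). Another gene, ENSBGRG00000003482, carries a lactate dehydrogenase annotation with no symbol and no informative description, and could not be assigned to a member. Its FPKM was 135.74 to 262.14 at 6 months, 90.74 to 137.55 at 18 months, 44.87 to 64.44 at 4 years and 75.72 to 104.7 in cattle–yak.

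Within a library, the share of the germ-cell isozyme in the FPKM of its pair does not depend on the scaling between libraries. At 4 years, GAPDHS made up 58.3% to 61.0% of GAPDHS and GAPDH together, PGK2 78.1% to 81.8% of both kinases, and ENO4 20.6% to 21.5% of ENO4 and ENO1. The share thus differed among the steps far more than among the 3 animals. In cattle–yak it was 0.0698% to 0.0843% for GAPDHS, 0.231% to 1.01% for PGK2 and 1.72% to 1.80% for ENO4. At 6 months it was 0.0689% to 0.140%, 0 to 0.0370% and 0.779% to 1.04%.

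The difference between groups in the mean log2 ratio of germ-cell to somatic counts was tested with a two-sided exact permutation test for 3 pairs and 6 comparisons, 18 tests in all. With 3 against 3 libraries, p cannot go below 0.1, which 15 of the 18 tests reached (adjusted p = 0.12). Cattle–yak minus yak of 4 years was −10.93 for *GAPDHS* to *GAPDH*, −9.55 for *PGK2* to *PGK1* and −3.84 for *ENO4* to *ENO1*, with pooled SDs of 0.113, 0.774 and 0.117. Cattle–yak minus yak of 6 months was −0.49 for *GAPDHS* to *GAPDH*, with overlapping libraries (exact p = 0.3). For *PGK2* to *PGK1* that difference was 4.51 and for *ENO4* to *ENO1* 1.05, both without overlap. The value for *PGK2* to *PGK1* rests on the few counts at 6 months and was 3.13 with 3 counts added to each gene.

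**Figure D2:**
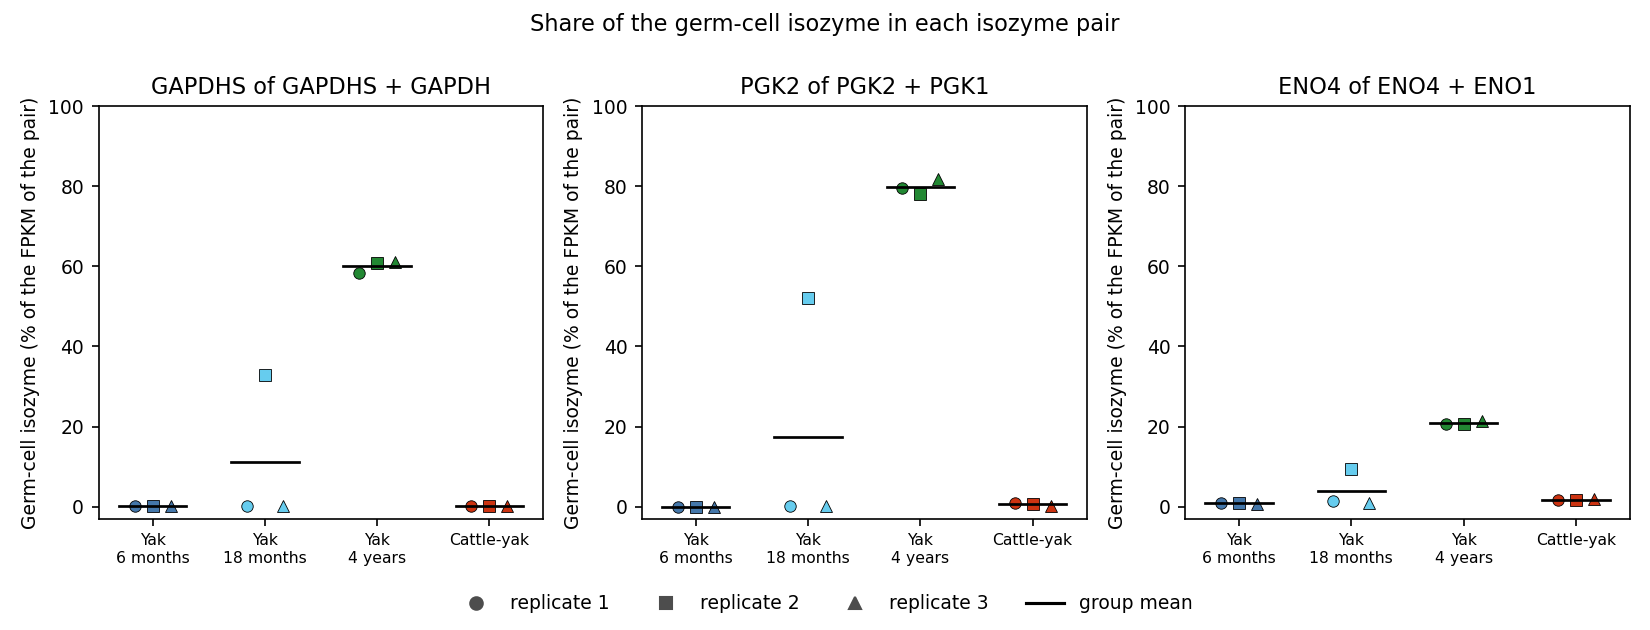
Share of the germ-cell isozyme in the summed FPKM of its pair (percent) in the 12 libraries, by group, with lines for group means of 3. In yak of 4 years the share is near 60% for GAPDHS, 80% for PGK2 and 21% for ENO4, and in cattle–yak it is at most 1.80% for each pair.

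Counts of the 6 symbol-matched genes were read against all genes tested. To be called, a gene needed both an adjusted p under 0.05 and a change of 1 or more in size on the log2 scale. Between 6 months and 4 years, 5 of 6 were called, 3 higher and 2 lower at 4 years, where 55.7% of all genes tested were called, 31.0% higher and 24.7% lower. In cattle–yak against yak of 4 years, all 6 were called, where 44.0% of all genes were called. The 3 germ-cell isozymes were lower in cattle–yak, as were 27.0% of all genes, and *PGK1*, *ENO1* and *TPI1* were higher, as were 17.1%. In cattle–yak against yak of 6 months, 2 of 6 were called, *PGK2* and *ENO4*, both higher, against 37.8% of all genes called and 18.1% called higher. These comparisons share libraries and are not independent of each other. All 6 genes passed the filter on low counts in these 3 comparisons.

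Scaling set the sign of some small changes between cattle–yak and yak of 6 months. The FPKM of *GAPDH*, *PGK1*, *ENO1*, *TPI1* and *LDHB* was higher in every cattle–yak than in any yak of 6 months, whereas the fitted log2 fold changes were 0.81, −0.21, 0.09, 0.89 and −0.05. In this comparison the median log2 fold change of all genes was −0.018 in the reported fit and 0.518 with scaling by library size alone. That scaling gave 1.34 for *GAPDH* and 1.42 for *TPI1*, which were then called. The calls against yak of 4 years did not turn with scaling.

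**Figure D3:**
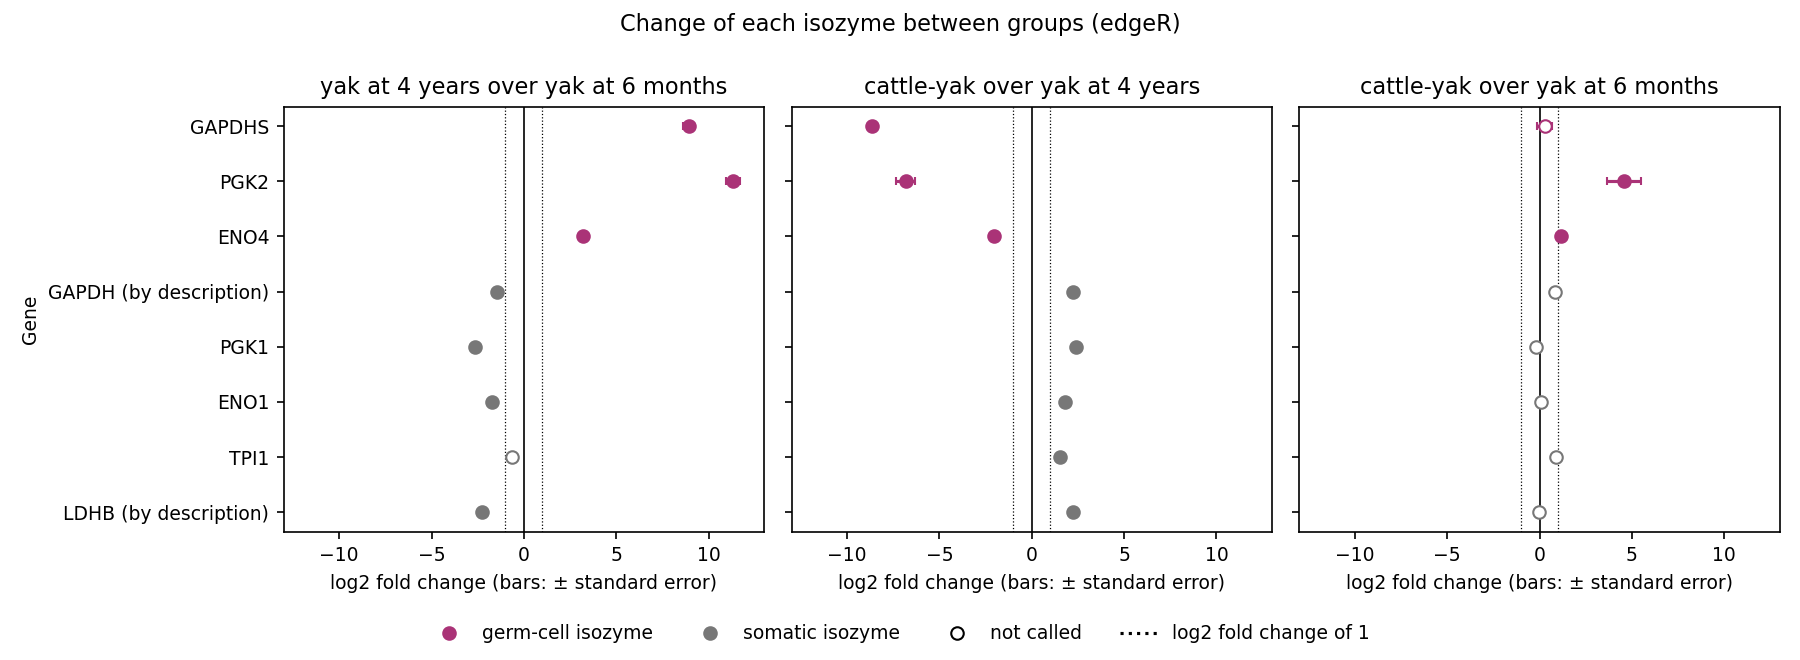
Log2 fold change of each gene in 3 comparisons (x axis; bars are the standard error), for germ-cell isozymes and somatic forms. Filled points were called and open points were not, and dotted lines mark a log2 fold change of 1 in size. Germ-cell isozymes lie to the right and somatic forms to the left between 6 months and 4 years, and the order is turned between cattle–yak and yak of 4 years.

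Among yaks of 18 months, the germ-cell isozymes were high in replicate 2 only. In this library GAPDHS, PGK2 and ENO4 reached 60.6%, 67.2% and 59.8% of the mean FPKM of yak of 4 years, whereas the other animals of 18 months had 0.319% and 0.467% for GAPDHS. The germ-cell share of the pair was 32.8% for GAPDHS, 52.1% for PGK2 and 9.32% for ENO4 in replicate 2, and at most 0.182%, 0.150% and 1.47% in the other animals of its group. The 3 germ-cell isozymes thus stood at a similar fraction of the adult level in the library with adult-like spermatid markers. The part of cell composition in these values was not tested.

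Between 18 and 6 months, none of 5 genes tested was called by edgeR, 2 had an unadjusted p below 0.05, and 0.0672% of all genes were called. DESeq2 called 0, with no adjusted p for 2 of them, and 9.68% of all genes. *PGK2* did not pass the filter on low counts in this comparison. The log2 fold change of *GAPDHS* was 6.76 (SE 2.12, adjusted p = 0.121) and 1.19 without replicate 2 (adjusted p = 0.220), when edgeR called none of the 5 genes, 1 had an unadjusted p below 0.05, and 0.504% of all genes were called. DESeq2 was not run without that library. Between 4 years and 18 months, none of 6 was called by edgeR, 2 had an unadjusted p below 0.05 and 0.0371% of all genes were called. DESeq2 called 1, *PGK1*, and 16.5% of all genes. Without replicate 2, 5 of 6 were called, where 44.6% of all genes were called, 26.1% higher and 18.5% lower. *GAPDHS* was then higher at 4 years by 7.78 (adjusted p = 9.68e-06), *PGK2* by 9.40 (adjusted p = 9.68e-06) and *ENO4* by 3.17 (adjusted p = 7.13e-05), and *PGK1* and *ENO1* were lower by log2 fold changes of −2.46 and −1.13.

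Against yak of 18 months, *TPI1* alone was called in cattle–yak, higher by 1.16 on the log2 scale (adjusted p = 0.0302), where 5.80% of all genes were called and 3.45% were higher. The call was lost without yak of 18 months replicate 3 (adjusted p = 0.0564) and without cattle–yak replicate 1, 2 or 3 (adjusted p = 0.131 to 0.147), with log2 fold changes of 1.08 to 1.23. In each fit without a cattle–yak library, edgeR called 0 of all genes tested, and DESeq2 was not run. Without yak of 18 months replicate 2, *TPI1* (1.01) and *ENO4* (1.10) were called, where 15.3% of all genes were called and 7.22% were higher. *GAPDHS* then had a log2 fold change of −0.89 (adjusted p = 0.111) and *PGK2* of 2.53 (adjusted p = 0.0767).

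The FPKM of the isozymes was also summed for each step. For phosphoglycerate kinase the sum was 228 ± 15.2 in cattle–yak and, in yak, 183 ± 49.0 at 6 months, 207 ± 29.9 at 18 months and 212 ± 29.9 at 4 years (n = 3 each). The yak groups overlapped with each other, and cattle–yak, with 218 as its lowest library, lay just above the 216 of the highest library of 6 months. With TMM scaling the means were 204 in cattle–yak and 232, 204 and 187 in yak by age. The kinase sum was thus higher at 4 years than at 6 months by FPKM and lower with TMM scaling, and neither difference was tested. For glyceraldehyde-3-phosphate dehydrogenase the sum was 1717 ± 87.6 in cattle–yak and 681 ± 128, 1119 ± 233 and 903 ± 38.0 in yak by age. With TMM scaling it was 1538 in cattle–yak and 867, 1104 and 796 in yak, so that the direction between 6 months and 4 years turned with the scaling. For enolase, with *ENO2* and *ENO3* included, it was 535 ± 89.0 in cattle–yak and 347 ± 81.1, 291 ± 27.7 and 212 ± 10.8 in yak by age, and with TMM scaling 479 in cattle–yak and 440, 288 and 187 in yak.

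Relative to *TPI1* in the same library, the mean of each of the 3 sums was lowest in cattle–yak. *TPI1* itself was higher there, with 635 ± 42.4 FPKM against 237 ± 33.4, 251 ± 29.9 and 228 ± 4.95 in yak by age. By FPKM, the mean of each of the 3 sums was also highest in cattle–yak, so a low ratio does not mean a low sum. The kinase ratio was 0.637 to 0.825 at 6 months, 0.713 to 0.969 at 18 months, 0.770 to 1.04 at 4 years and 0.319 to 0.400 in cattle–yak. The ratio of the dehydrogenase sum to *TPI1* was 2.68 to 3.01 at 6 months, 3.98 to 4.89 at 18 months, 3.72 to 4.15 at 4 years and 2.61 to 2.84 in cattle–yak. The enolase ratio was 0.849 ± 0.186 in cattle–yak and, in yak by age, 1.45 ± 0.161, 1.16 ± 0.0501 and 0.932 ± 0.0673. Cattle–yak overlapped with yak of 6 months in the dehydrogenase ratio and with yak of 4 years in the enolase ratio, and with no group in the kinase ratio. These ratios were not tested.

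**Figure D4:**
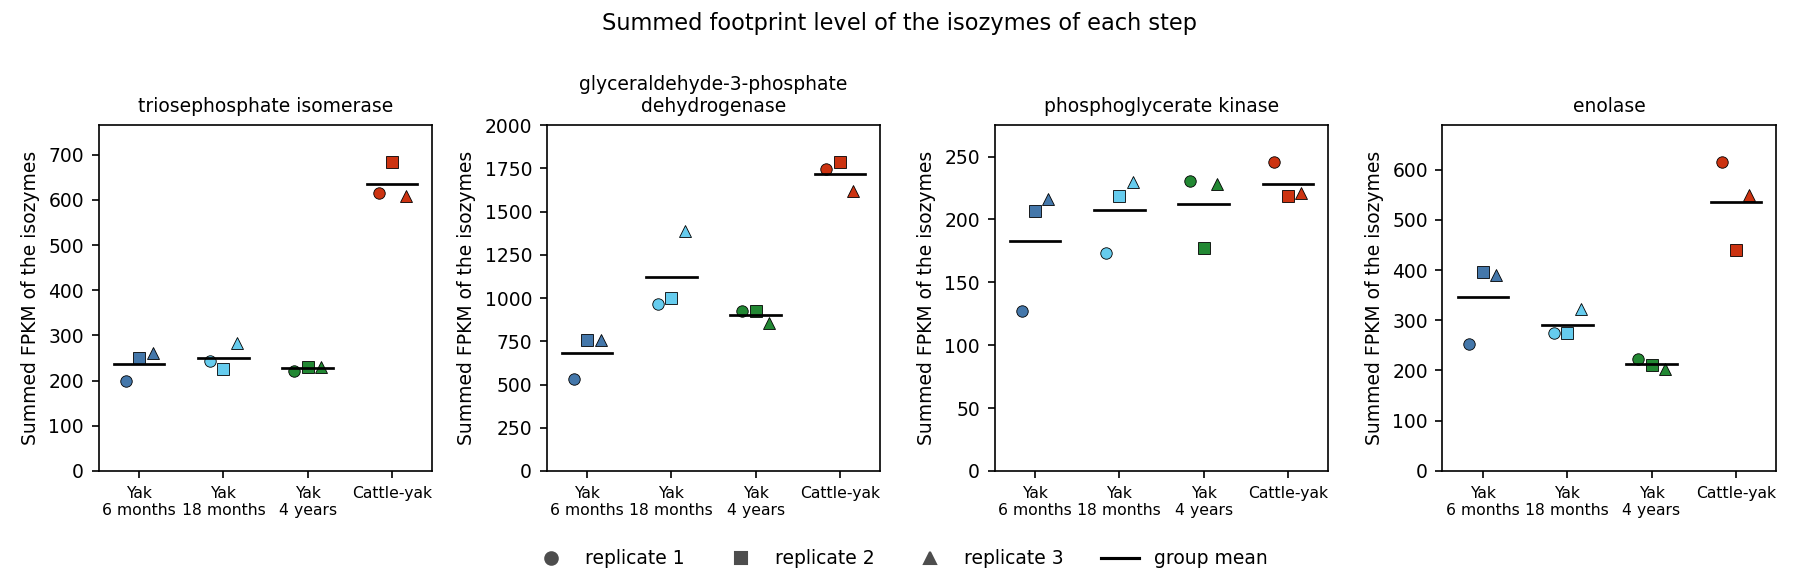
Summed FPKM of the isozymes of each step in the 12 libraries (linear axes from 0, lines are group means of 3), with *TPI1* alone for triosephosphate isomerase. The kinase sum has group means of 183 to 228 with overlapping libraries among the yak groups, and the other 3 steps are highest in cattle–yak.

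The genes most like each member were named by the smallest root mean square difference of log2 CPM, each gene centred on its own mean, over the 12 libraries among 12075 genes. For *GAPDHS* these were *SPAG4* (0.402), which encodes a sperm-associated antigen, *LRRC52* (0.404) and *TSPAN16* (0.416). The FPKM of *SPAG4* was 0.05 to 0.12 at 6 months, 0.25, 41.85 and 0.15 at 18 months, 64.52 to 77.27 at 4 years and 0.19 to 0.27 in cattle–yak, so that it was low in the same libraries as *GAPDHS*. For *PGK2* the nearest was *PDHA2* (0.577), the testis form of the pyruvate dehydrogenase E1 alpha subunit, followed by the axonemal dynein heavy chain *DNAH8* (0.677). For *ENO4* it was the kinesin gene *KIF3B* (0.249).

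Among the somatic forms, *GAPDH* was nearest to *PGD* (0.143), an enzyme of the pentose phosphate pathway, and *LDHB* to *PGM2* (0.167), a phosphoglucomutase. *PGK1* was nearest to *PCCB* (0.170), *ENO1* to *AMOTL2* (0.107) and *TPI1* to *SSBP3* (0.105). Between members, *ENO1* and *LDHB* differed by 0.302 and *GAPDHS* and *PGK2* by 1.39. These values describe likeness over libraries that share their groups.

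Of 24 other glycolysis genes on a list chosen with earlier results of these data known, 18 had a symbol in the data. Between 6 months and 4 years 16 were tested, and 4 rose and 3 fell, where 31.0% and 24.7% of all genes did. The median log2 fold change was 0.01, against 0.08 for all genes tested. *PFKP*, a phosphofructokinase, rose by a log2 fold change of 2.61, with 8.28 ± 2.25 FPKM at 6 months and 74.0 ± 5.57 at 4 years, and *ENO3*, the muscle enolase, rose by 2.06. *HK2*, a hexokinase, and *PKLR*, a pyruvate kinase, rose by 1.82 and 3.94. The level of *PKLR* was low, with 0.02, 0.1 and 0.24 FPKM at 6 months and 1.73, 4.38 and 1.99 at 4 years. *PFKL* fell by 1.55 on the log2 scale, *ALDOC* by 2.14 and *ENO2* by 1.23.

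Against yak of 4 years, 5 of the 16 tested were higher and 3 lower in cattle–yak, where 17.1% and 27.0% of all genes were. The median log2 fold change of the list was 0.58, against −0.00 for all genes. The FPKM of *HK2* was 124.05, 88.17 and 92.68 in cattle–yak and 16.33, 20.32 and 19.86 at 4 years, with a log2 fold change of 2.45. *PKM*, the pyruvate kinase of most tissues, had 726.34, 651.97 and 638.1 FPKM in cattle–yak and 257.07, 247.08 and 252.17 at 4 years, a log2 fold change of 1.42. *PFKFB4*, *PFKL* and *ALDOC* were higher by 1.68, 1.47 and 1.09.

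*PFKP* and *ENO3* were lower in cattle–yak than at 4 years by log2 fold changes of −3.07 and −2.18, in the direction of the germ-cell isozymes, and *HK3* by −3.56 at levels of at most 2.04 FPKM. *PFKP* had 8.77, 8.82 and 8.65 FPKM in cattle–yak and 8.82, 46.95 and 9.47 at 18 months, so that its only high library at 18 months was replicate 2. Against yak of 6 months, 5 of 16 tested were called, where 37.8% of all genes were. *HK2* (4.29), *PFKFB2* (1.85) and *PKLR* (3.71) were higher and *HK3* (−3.69) and *ALDOC* (−1.03) lower. *PKLR* had at most 0.24 FPKM at 6 months and 2.48, 1.5 and 2.49 in cattle–yak. The level of *HK2* in cattle–yak was thus above that of every yak library, whereas each germ-cell isozyme was below all yaks of 4 years.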

How the data were processed

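Ribo-seq libraries of testis were made from 12 animals, 1 library each, grouped as labelled. The authors trimmed the reads, removed reads of rRNA (Bowtie2) and of further small RNAs (BLAST), kept reads of 20 to 40 bases and aligned them to the yak genome with STAR. The authors' expected counts per gene came from RSEM and were deposited as whole numbers without normalization. The authors' FPKM divides these counts by gene length and library total. The deposited log2 fold changes, p-values and FDR of the authors and their tables of group means were not used. The 3 deposited tables hold the same 20965 genes, and repeated libraries were identical. Since assignment between similar genes was made by the authors' counting, members with close copies are uncertain.

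The 6 libraries of each comparison passed through filterByExpr and TMM scaling, and the quasi-likelihood test of edgeR 4.0.16 (R 4.3.3) was applied with Benjamini-Hochberg adjustment over all genes tested, without a block. Standard errors were approximated as the log2 fold change over the square root of F. Log2 ratios of isozyme counts took 0.5 counts added to each gene and were tested with an exact permutation test. Other work used pandas 2.3.3, numpy 2.4.6, scipy 1.17.1 and matplotlib 3.10.9. The edgeR and DESeq2 fits were checked on simulated data for cattle–yak against yak of 4 years, and the permutation test was not. The genes named were the 10 listed, other glycolysis enzymes, further germ-cell isozymes with their general forms, and the 3 nearest genes of each member. The members and lists were chosen with earlier results of these data known. Alternatives were DESeq2 1.42.0, limma 3.58.1 on log2(FPKM + 1) or log2(FPKM + 0.1), RLE, upper-quartile or library-size scaling, no filter, all 12 libraries in 1 fit, a replicate block and each library left out. Dividing the summed FPKM by TMM factors was added after seeing the data.

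Replicate libraries differed beyond counting noise (chi-square per degree of freedom 26.4 to 336), and with 1 library per animal, animal and preparation were not separated. A count of 0 allows up to 3 counts, a CPM of at most 0.184 in the shallowest library. Intervals cover counting error only. No coordinates or sequences were used.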

Additional observations from a re-analysis of the deposited data

How the results depend on the processing

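The 5 calls between 6 months and 4 years and the 6 between cattle–yak and yak of 4 years were made in each of the 9 alternatives and each leave-one-out fit. *GAPDH*, which is not among these genes, lost its call between 6 months and 4 years by library size alone and in the limma fits. With all 12 libraries in 1 fit, 2 members were called between 18 and 6 months, 2 between 4 years and 18 months, 2 between cattle–yak and yak of 18 months and 0 between cattle–yak and yak of 6 months, where that fit called 15.7%, 20.6%, 15.5% and 32.1% of all genes. DESeq2 called 1 between 4 years and 18 months, and 16.5% of all genes. Leaving out a library gave 0 to 1, 0 to 5 and 0 to 2 calls in the 3 comparisons with yak of 18 months, in that order, and 2 between cattle–yak and yak of 6 months. Except for leaving out a library, the cause of these changes was not tested.

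The replicate numbers did not pair the samples, since the correlation of deviations of same-numbered libraries was −0.345 to 0.123. With the replicate number as a block, 0 members were called between cattle–yak and yak of 18 months, and no other number of called members changed.

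For *PGK2* to *PGK1*, the log2 ratio of 4 years over 6 months was 12.34 with FPKM + 0.1 and 12.60 with 3 counts added, against 14.06, and that of cattle–yak over 6 months was 2.92 and 3.13, against 4.51. Leaving out a library gave −2.98 to 2.26 for *PGK2* to *PGK1* and −1.17 to 0.49 for *ENO4* to *ENO1* between cattle–yak and yak of 18 months. The ratios of *LDHC* to *LDHA* and to *LDHB* were not run.

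Signs turned for 20 values, none called in the reported test. Between 18 and 6 months they were *TPI1* (0.13 by library size, 0.0835 and 0.0838 by limma with 1 and 0.1 added) and *GAPDH* (−0.00228 to 0.484 over libraries left out). Between cattle–yak and 18 months they were *ENO4* (0.34 with the block, 0.33 and 0.43 by limma with 1 and 0.1 added, −0.66 to 1.10 over libraries left out), *PGK2* (0.14 with the block, −5.43 to 2.53) and *PGK1* (−0.0428 to 0.491). Between cattle–yak and 6 months they were *PGK1* (0.31 by library size, 0.34 and 0.35 by limma), *LDHB* (0.48 by each of these, −0.158 to 0.0146 over libraries left out) and *ENO1* (−0.0342 to 0.222). Dividing summed FPKM by TMM factors gave 232, 204, 187 and 204 for the kinases at 6 months, 18 months, 4 years and in cattle–yak. The exact tests of 3 against 3 libraries cannot pass 0.05.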

Other observations

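Other enzymes with a germ-cell form outside glycolysis had the same order of group means as *GAPDHS* and *PGK2*, from yak of 6 months through cattle–yak to yak of 4 years. A list of 7 such genes was chosen with earlier results of these data known, and 4 had a symbol in the data. They were *PDHA2* (pyruvate dehydrogenase E1 alpha), *GK2* (glycerol kinase), *GOT1L1* (a relative of the aspartate aminotransferase GOT1) and *COX7B2* (a cytochrome c oxidase subunit). All 4 rose between 6 months and 4 years, where 31.0% of all genes did so. All 4 were lower in cattle–yak than in yak of 4 years, where 27.0% of all genes were. These calls came from edgeR's test with Benjamini-Hochberg adjustment. Between yak of 6 months and cattle–yak, the change of *GAPDHS* did not exceed the spread between libraries (edgeR adjusted p = 0.572). *GOT1L1* overlapped there, with 0.13, 0.07 and 0.05 FPKM against 0.12, 0.38 and 0.13, and was not tested. The FPKM of *GK2* was 0, 0.02 and 0.02 at 6 months, 0, 78.54 and 0.27 at 18 months, 148.94, 142.05 and 139.42 at 4 years, and 1.08, 1.03 and 0.28 in cattle–yak. That of *PDHA2* was 0, 0 and 0.05, then 0.04, 102.38 and 0.21, then 191.01, 117.37 and 184.31, and 1.4, 1.16 and 0.24 in the same order.

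*COX7B2* kept the most in cattle–yak, with 45.15, 24.07 and 18.57 FPKM against 110.92, 71.8 and 57.69 at 4 years and 1.44, 0.7 and 2.06 at 6 months. *PDHA1*, the general form beside *PDHA2*, fell by 2.08 on the log2 scale between 6 months and 4 years and was higher in cattle–yak than in yak of 4 years by 2.58, with 158.91, 134.53 and 133.8 FPKM in cattle–yak. It was the only one of 3 general forms tested that was called in these comparisons. *GOT1* had log2 fold changes of −0.44 and 0.86 and *COX8A* of −0.17 and 0.27. The summed CPM of round and of elongating spermatid markers had the same order of groups as *PDHA2*, *GK2*, *GOT1L1* and *COX7B2*. Of these markers, *TNP1* and *ODF1* overlapped between cattle–yak and yak of 6 months. The part of the markers in the result was not tested.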
